A study of Mus musculus with 12 samples.

Results

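The replication-dependent histone genes supply the histones that package newly copied DNA. They were taken here as every gene on the array whose name begins with Hist1 to Hist4 followed by an H1, H2A, H2B, H3 or H4 designation, with 1 probe kept per gene, the one of highest mean log2 signal over all 12 arrays. The rule found 45 genes among 34650 gene names, measured by 52 probes: 6 of H1, 12 of H2A, 10 of H2B, 8 of H3 and 9 of H4. By the mm9 positions of their probes, 34 lie on chromosome 13 between 21814057 and 24026527, 8 on chromosome 3, 2 on chromosome 11 and 1 on chromosome 6. All 45 names were matched to current RefSeq symbols through synonyms (Hist1h1b is now H1f5, Hist1h4d is H4c4).

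Total RNA from wild-type ICR mouse kidneys was hybridised for 5 stages, of which E11.5 was the earliest and birth (P0) the latest, with E13.5, E15.5 and E17.5 between them. Another E11.5 kidney was measured after 7 days of culture; each of these 6 samples had 1 array, and the E11.5 kidney was taken without ureter. The kidney organoids were reconstructed from nephron progenitors and ureteric bud induced from mouse embryonic stem cells of mixed B6 and 129SV background, together with stromal progenitors of E11.5 kidneys, so they hold cells of both origins. They were measured directly after reconstruction (day 0, 3 arrays) and after 7 days on Matrigel-coated transwells in serum-containing medium (day 7, 3 arrays). The labels do not say that the organoid replicates came from separate cultures, so p-values measure only the spread between these samples.

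The canonical histone genes are transcribed mainly during S phase, and most lie in clusters. Their mRNAs have no introns and end in a conserved stem-loop in place of a poly(A) tail. The stem-loop is bound by SLBP, and the U7 small nuclear ribonucleoprotein directs the cut just behind it. H2A, H2B, H3 and H4 form the nucleosome core, and H1 binds the linker DNA between nucleosomes. Some of these genes can also give longer polyadenylated transcripts that read past the stem-loop, which are known from differentiated cells.

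Where each probe sits relative to the stem-loop is shown first, because the results divide by it. The histone stem-loop consensus of 16 bases, searched on the strand each probe is written in, was found in 7 of 55681 probes (0.0126%), 5 of which belong to members. The following 30-base windows of those 5 probes, 5′ to 3′, have the stem-loop in capitals.

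Hist1h3a: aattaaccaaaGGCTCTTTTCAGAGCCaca
Hist1h3g: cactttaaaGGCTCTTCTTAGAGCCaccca
Hist1h3i: ataacaaaaGGCTCTTTTCAGAGCCccctc
Hist1h4m: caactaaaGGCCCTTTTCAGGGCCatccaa
Hist2h2bb: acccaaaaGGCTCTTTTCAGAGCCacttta

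A further 10 members have a probe that starts far downstream, more than 500 bases into the transcript for core histones and more than 800 for H1. These are Hist1h1c, Hist1h1d, Hist3h2a, Hist1h2bc, Hist1h2be, Hist1h2bp, Hist1h2bq, Hist2h2be, Hist2h3c2 and Hist1h4i. For 5 of the 10 the probe starts beyond the length of the RefSeq gene, and for the other 5 it falls within a RefSeq gene of greater length. The remaining 30 members, with neither the consensus in the probe nor such a start, were taken to have a probe upstream of the stem-loop. The stem-loop itself was not located for them. This grouping used probe sequences and positions, not signals, but its limits were set after the probes had been seen.

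Coding sequences of paralogs are close to identical, so several members cannot be told apart by hybridisation. Of the 12 H2A probes, 7 share at least 30 bases with another of them, at 82.4% to 100% identity in those pairs. Only overlaps above a set identity were counted, so the lower figure depends on that limit. Shown here are 3 of these probes, with differences from Hist1h2af in capitals.

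Hist1h2af: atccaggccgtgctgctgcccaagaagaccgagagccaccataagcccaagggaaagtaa
Hist1h2ah: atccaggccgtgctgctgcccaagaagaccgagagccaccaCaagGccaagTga
Hist1h2an: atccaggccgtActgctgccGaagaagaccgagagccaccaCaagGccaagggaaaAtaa

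The H4 coding sequence is shared in the same way, and the 4 probes below cover 1 stretch of it, with differences from Hist1h4d in capitals. They are shown because the Hist1h4d, Hist1h4j and Hist1h4k probes moved together over the arrays, whereas the Hist1h4c probe had smaller differences between stages, of the same sign.

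Hist1h4d: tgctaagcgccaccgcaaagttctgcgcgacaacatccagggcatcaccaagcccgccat
Hist1h4j: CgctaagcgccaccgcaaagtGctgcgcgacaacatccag
Hist1h4k: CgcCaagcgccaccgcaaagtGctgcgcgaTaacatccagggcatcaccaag
Hist1h4c: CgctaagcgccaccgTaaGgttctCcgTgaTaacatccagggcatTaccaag

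Over these stretches Hist1h4j has 2 mismatches to Hist1h4d, Hist1h4k has 4 and Hist1h4c has 7. For Hist1h4d and Hist1h4k these are their second probes; the kept ones lie at the 3′ end of the coding sequence, at chr13:23673749-23673808 and chr13:21842063-21842122 (mm9).

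Values are log2 processed signal minus the 75th percentile of the array, here called log2 level, so 0 is that array's 75th percentile. That percentile lay at 126 to 138 signal units for day 0 organoids and at 201 to 287 for the remaining samples; saturated spots were absent. Of the 45 members, 40 were well above background on all 12 arrays. Hist1h1d was above it on none and Hist1h2bq on 4. Hist3h2bb-ps, a pseudogene, was above background on 7 arrays, and Hist1h2bb and Hist2h3c2 on 11 each. In whole tissue, fewer cells of a type and less RNA per cell cannot be told apart. The summed linear level of 9 erythroid marker genes was 398 to 1430 in fresh kidney, 6.92 in cultured kidney, 35.1 to 269 in day 0 and 3.02 to 4.16 in day 7 organoids; the globin genes Hba-x, Hbb-y, Hbb-bh1 and Hbb-b1 were not well above background on every day 7 array. That of 6 macrophage markers was 10.3 to 16.3 over the kidney arrays and 2.81 to 4.54 in the organoids, where Cx3cr1, C1qa and C1qc were not well above background on every array of either group. These 3 were at −0.94, −1.99 and −1.42 in day 7 replicate 2 and at −6.73, −6.80 and −7.23 in replicate 1. The part of these cells in the histone values was not tested. Of 11 kidney markers, 8 were well above background at E11.5, 10 at E13.5 and 11 in the other kidneys, and on every array 9 at day 0 and 10 at day 7. Six2, of nephron progenitors, was at 3.71 to 6.05 over the 12 arrays. Nphs1, of podocytes, was not above background on every array of either organoid group, nor Slc12a1, of the loop of Henle, at day 0. Ret, of the ureteric bud tip, was at 1.01 in E11.5 kidney and −2.67 to −2.23 at day 0.

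The H4 probes set 2 kidney arrays apart from their neighbours and are given before any result. Hist1h4d, which encodes core histone H4, had a log2 level of 4.18 at E11.5, 7.54 at E13.5, 4.10 at E15.5, 8.03 at E17.5 and 3.06 at P0. It was 4.10 in cultured E11.5 kidney, 7.48, 7.10 and 7.47 in day 0 organoids, and 8.09, 8.23 and 8.21 in day 7 organoids. The E13.5 and E17.5 kidneys and all 6 organoid arrays were thus high, and the other 4 kidney arrays low. Between E17.5 and P0 the difference was 4.97 on the log2 scale.

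Hist4h4, Hist2h4, Hist1h4k and Hist1h4j were high on the same 8 arrays and low on the other 4. Hist4h4, on chromosome 6 outside the clusters, was at 1.04, 3.86, 0.87, 4.58 and −0.15 over the 5 stages, and at 0.87 in cultured kidney. Hist2h4 was at 4.25, 6.61, 4.22, 7.04 and 3.21 over the stages, Hist1h4k at 4.47, 6.72, 4.45, 7.05 and 3.40, and Hist1h4j at 0.32, 2.13, 0.18, 2.57 and −0.91. Over the 12 arrays Pearson's r with Hist1h4d was 0.995 for Hist2h4 and Hist4h4, 0.992 for Hist1h4k and 0.989 for Hist1h4j. These 4 ranked highest among all genes above background on every array, and the next gene, Akr1e1, had r = 0.864. The points share arrays, so r is a description. Of the 5 kept probes, Hist1h4d and Hist1h4k overlap by 34 bases, and no other pair overlaps by 30 or more.

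The second probes of Hist1h4d and Hist1h4k were high on those arrays as well, and that of Hist2h4 was not high on the organoid arrays. The Hist1h4d probe near the start of the coding sequence was at 1.85, 5.47, 1.87, 6.20 and 0.83 over the stages, and the corresponding Hist1h4k probe at 1.50, 3.70, 1.34, 4.29 and 0.32. The Hist2h4 probe at base 3 was at −3.79, −3.25, −3.78, −2.96 and −4.73 over the stages. On the organoid arrays it was at −4.57 to −3.87. The other H4 members were less like Hist1h4d. Hist1h4c was at 1.16, 1.93, 1.25, 1.85 and 0.27 over the stages (r = 0.775 with Hist1h4d). Hist1h4i (r = 0.399), Hist1h4h (r = −0.194) and Hist1h4m (r = −0.32) were further from it. Outside H4, Hist1h3a, an H3 gene with a stem-loop probe, was at −2.20, −1.18, −2.35, −1.03 and −2.88, so E13.5 and E17.5 were again its highest stages. Other members had these highest stages too. Among them Hist1h2ab was at 6.61, 7.36, 6.54, 7.01 and 5.53, and Hist1h2aa at −0.31, 0.29, −0.57, 0.05 and −1.12 (r = 0.823 with Hist1h4d). Hist1h2bb was at −2.70, −2.13, −2.92, −2.47 and −4.42. Such members remain in the counts that leave out the 5 H4 genes. The cause of this pattern was not tested. For each tested comparison below, the total of members called is also given without Hist1h4d, Hist1h4j, Hist1h4k, Hist2h4 and Hist4h4, here called the 5 H4 genes. Other counts include them unless stated, among them those of stage shapes, neighbouring stages, unadjusted p, non-overlap, histone type and likeness to Mki67.

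**Figure D1:**
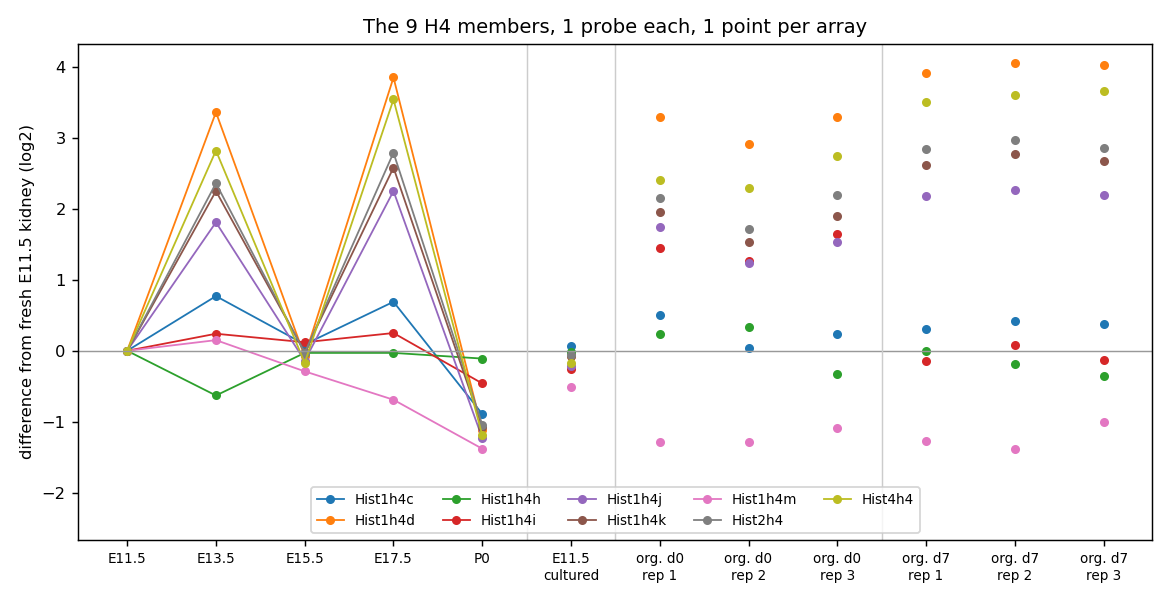
Difference in log2 level from the fresh E11.5 kidney array for the 9 H4 members (y axis), with 1 point per array (x axis); fresh stages are joined by lines. Hist1h4d, Hist4h4, Hist2h4, Hist1h4k and Hist1h4j stand high at E13.5, at E17.5 and on the 6 organoid arrays, and the other 4 members do not show rises of that size at E13.5 or E17.5.

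Over the kidney stages most histone probes were highest at E13.5 and lowest at birth. The highest of the 5 stages was E13.5 for 28 of 45 members, and P0 was the lowest for 37. At P0, 39 of 45 members were below their E11.5 value; among the 40 above background on all arrays the count was 36. The 45 include Hist1h1d, well above background at no stage, and Hist1h2bq, well above it only at E15.5 among the fresh stages. These shapes were not counted over all genes, so they are not shown to be particular to the histone genes. The median difference from E11.5 over all genes was 0.07 at E13.5, −0.12 at E15.5, −0.22 at E17.5 and −0.32 at P0. It thus had the same highest and lowest stage. The median difference of P0 from E11.5 was −0.81 for H1, −0.79 for H2A, −0.39 for H2B, −1.18 for H3 and −1.06 for H4, beside −0.32 over all genes. Mki67, a nuclear protein of cycling cells, was 0.80 lower, and the median of 13 proliferation genes above background on every array was 0.95 lower.

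A linear trend over the 5 stages was fitted with limma, which moderates each gene's variance with that of all genes. It called 1 of 44 tested members higher and 5 lower at an adjusted p under 0.05 with Benjamini-Hochberg correction over all genes, against 18.3% of all genes called, 8.74% higher and 9.57% lower. The median slope was −0.20 per stage for the members and −0.06 over all genes. At an unadjusted p under 0.05, 2 members were higher and 17 lower. The share of all genes at that level was not counted. Without the 5 H4 genes the counts stayed at 1 and 5 of 39. With 1 array per stage the trend rests on single arrays: without E17.5 or without P0 no member was called in either direction, and without E13.5 or E15.5 none was called lower. Without E11.5, 20 members were called lower and 2 higher, with the share of all genes in that fit not given.

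Hist1h2bc, an H2B gene with a downstream probe, was the member that rose. Its log2 level was 1.62 at E11.5, 2.02 at E13.5, 2.46 at E15.5, 3.94 at E17.5 and 4.12 at P0, so every stage was above the one before. The slope was 0.69 per stage (SE 0.10, limma adjusted p = 0.0186). Hist2h3c2, an H3 gene with a downstream probe, was at −3.29, −4.79, −2.67, −1.50 and −0.73. The E13.5 value was not well above background, so E15.5 was at least 4.33-fold higher than E13.5.

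The members that fell were Hist1h1a, Hist1h3i, Hist1h4m, Hist1h3c and Hist1h2bp. Hist1h3i, read by a stem-loop probe, was at 0.37, 0.49, −0.03, −0.66 and −1.26, a slope of −0.44 per stage (SE 0.08, limma adjusted p = 0.0294). Hist1h1a, a linker histone gene, was at 2.02, 2.24, 1.87, 1.16 and 0.67, a slope of −0.38 (SE 0.09, limma adjusted p = 0.0482). Hist1h4m, read at its stem-loop, had a slope of −0.36, Hist1h3c of −0.26 and Hist1h2bp of −0.24 (limma adjusted p = 0.0429, 0.0372 and 0.0414).

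The other linker histone genes differed among themselves. Hist1h1b was at 5.16, 5.86, 5.46, 4.75 and 4.23 over the stages, and Hist1h1e at 5.24, 5.52, 5.26, 4.91 and 4.43, both highest at E13.5 and lowest at P0. Hist1h1c, whose probe lies downstream, was instead highest at P0 (2.70) and stood between 1.46 and 2.14 at the other stages. Hist1h1t, the testis-specific linker histone, was well above background on all arrays but low, at −2.67 to −1.80 over the stages. Of 6 germ-cell markers, 4 or 5 were well above background at each fresh stage, Dazl at none, and their summed linear level was 0.449 to 1.23. With stage, 2 of 5 tested rose (Prm1 and Sycp1) and none fell.

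Neighbouring stages were compared in the study, with 1 array for each; these steps were not tested, and differences past 1 on the log2 scale are counted. At E13.5 against E11.5, 6 of 43 members were higher and 1 lower, against 14.2% of all genes, 5.30% higher and 8.94% lower. The 6 were the 5 H4 genes and Hist1h3a, and the 1 lower was Hist2h3c2. At E15.5 against E13.5, 1 of 44 was higher and 6 lower (11.6% of all genes, 9.83% higher and 1.74% lower). At E17.5 against E15.5, 8 of 44 were higher and 1 lower (7.76%, with 5.04% higher and 2.71% lower), and at P0 against E17.5, 1 of 43 was higher and 12 lower (7.96%, with 4.09% higher and 3.87% lower). At this last step Hist1h1c was the member past 1 upward, by 1.24. Hist1h2bb, an H2B gene, was 1.94 lower, Hist1h3a 1.85 lower, Hist1h4c 1.58 lower and Hist1h2ab, an H2A gene, 1.48 lower. All 5 H4 genes are among the 6 lower at E15.5, the 8 higher at E17.5 and the 12 lower at P0.

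**Figure D2:**
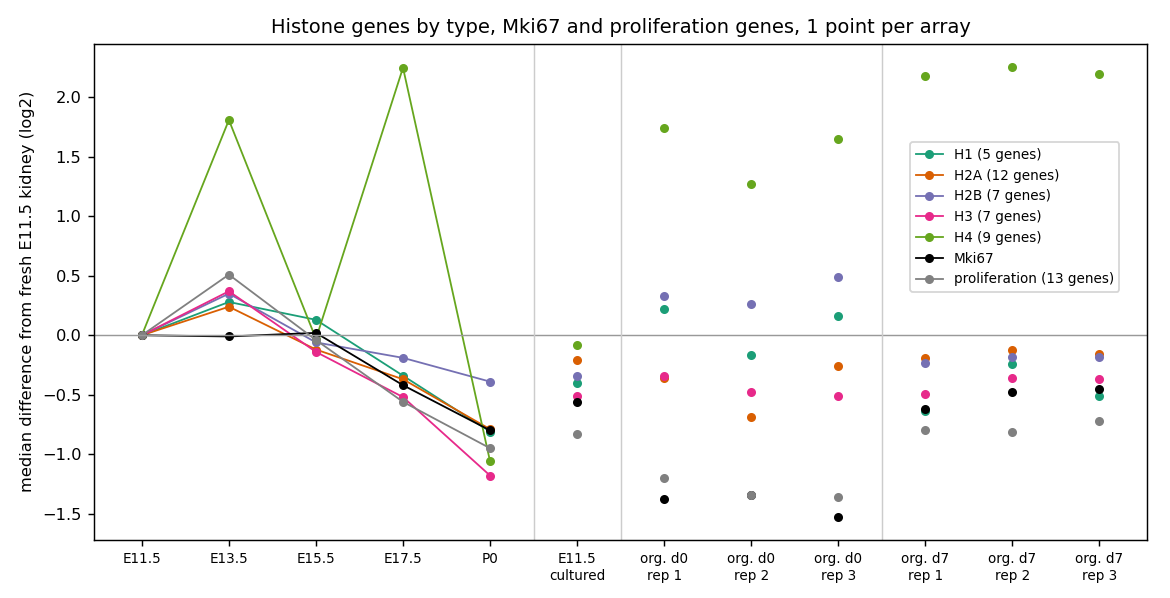
Median difference in log2 level from fresh E11.5 kidney (y axis) for the members of each histone type above background on all arrays, with Mki67 and the median of 13 proliferation genes, 1 point per array (x axis). At P0 all 5 histone types, Mki67 and the proliferation genes are below E11.5, and at day 0 Mki67 lies between −1.53 and −1.34 while H2B lies between 0.26 and 0.49.

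Day 0 organoids were set against fresh E11.5 kidney, the stage from which their stromal cells came. Proliferation genes were lower in the organoids: 14 of 15 fell, Mki67 by 1.42 on the log2 scale (SE 0.13, limma adjusted p = 0.00189). The histone probes moved in both directions, with 12 of 43 higher and 7 lower, and 26.5% of all genes called, 13.6% higher and 12.8% lower. Without the 5 H4 genes 7 of 38 were higher and 7 lower. The fit took in both organoid groups and both E11.5 kidneys, and since each kidney is 1 array it is assumed to vary as the organoid arrays do. The erythroid marker sum was 1260 in this kidney and 35.1 to 269 in the organoids, and its part in these differences was not tested.

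Outside the 5 H4 genes, direction went with probe position. Of the 8 tested members with downstream probes, 7 were higher and none lower, with a median difference of 1.22. Of the 5 with stem-loop probes, none was higher and 3 were lower, with a median of −0.45. Of the 30 tested members with probes upstream of the stem-loop, 5 were higher and 4 lower, with a median of −0.20. The 5 higher were the 5 H4 genes, which had been set apart for values that are high on these organoid arrays. Among the other 25, none was higher and 4 were lower, with a median of −0.35. That none was higher there follows from leaving out the 5 H4 genes. The median over all genes was 0.03.

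Among the downstream probes, Hist1h2bc was at 1.62 in E11.5 kidney and at 3.26, 3.12 and 3.32 in day 0 organoids, 1.61 higher (SE 0.12, limma adjusted p = 0.00117). Hist3h2a, an H2A gene outside the main clusters, was at 3.20 in the kidney and at 4.55, 4.50 and 4.50 in the organoids, 1.32 higher (SE 0.10, limma adjusted p = 0.00123). Hist1h4i was at 1.18 against 2.63, 2.45 and 2.83, a difference of 1.46 (SE 0.18, limma adjusted p = 0.00385). Hist1h1c was at 1.80 against 3.09, 3.04 and 3.30, a difference of 1.34 (SE 0.17, limma adjusted p = 0.00399). In each case all 3 organoid arrays lay above the kidney array. Hist2h3c2, Hist1h2be and Hist1h2bp were 1.12, 0.97 and 0.82 higher, and Hist2h2be did not pass the test.

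At the other end, Hist1h1b, a linker histone gene with an upstream probe, was at 5.16 in E11.5 kidney and at 3.85, 3.46 and 3.72 in the organoids. It was lower by 1.48 (SE 0.18, limma adjusted p = 0.00384). Hist1h4m was at −0.15 against −1.43, −1.43 and −1.24, and Hist1h3i at 0.37 against −0.90, −0.86 and −0.71; both are read at the stem-loop. They fell by 1.21 (SE 0.18, limma adjusted p = 0.00622) and by 1.19 (SE 0.12, limma adjusted p = 0.00226). Hist2h3b, Hist1h2ab, Hist1h1a and Hist1h3g fell by 0.81, 0.68, 0.67 and 0.45. The H4 genes described above rose most, by 3.17 for Hist1h4d (SE 0.18, limma adjusted p = 0.000619), 2.48 for Hist4h4, 2.02 for Hist2h4, 1.79 for Hist1h4k and 1.50 for Hist1h4j.

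Probes of Hist1h4i and of Hist2h2bb at different positions differed in the same way. The Hist1h4i probe at base 33 of the transcript was at 0.96 in E11.5 kidney and at 0.90, 0.84 and 0.96 in day 0 organoids. Its kept probe at base 574, which is downstream, was at 1.18 against 2.63, 2.45 and 2.83. Its probe at base 483 was at 0.86 against 2.36, 2.06 and 2.42. That start is under the limit of 500 bases, so by the rule this probe is not downstream. It does start beyond the RefSeq gene length of 403. For Hist2h2bb, an H2B gene, the stem-loop probe was at 2.78 in the kidney and at 2.74, 2.54 and 2.70 in the organoids. Its probe at base 1340 was at −2.64 in the kidney and at −0.64, −0.32 and −0.50 in the organoids. The Hist1h4i and Hist2h2bb probes were chosen after their values had been seen. Probes of 1 gene in the same position group could differ as well. By the rule, the Hist1h4i probes at bases 33 and 483 are such a case. For Hist1h2ak, with both probes upstream, base 85 was at 6.57 in the kidney and at 5.37, 4.97 and 5.54 in the organoids. Its probe at base 418 was at 8.85 against 8.57, 8.26 and 8.67.

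With slide as a block, Hist1h2bp and Hist1h3g no longer passed (limma adjusted p = 0.0511 and 0.0643). Within slide 1, which held the E11.5 kidney and day 0 replicates 1 and 2, all 19 called members had the sign of the full fit; day 0 replicate 3 was on slide 2. The number of lower members depended on the scaling: 3 with the median in place of the 75th percentile, and 15 with quantile normalization or with normexp background correction. Without day 0 replicate 1, 4 were lower, and without any 1 of the day 7 replicates, which enter only through the shared variance, 3.

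**Figure D3:**
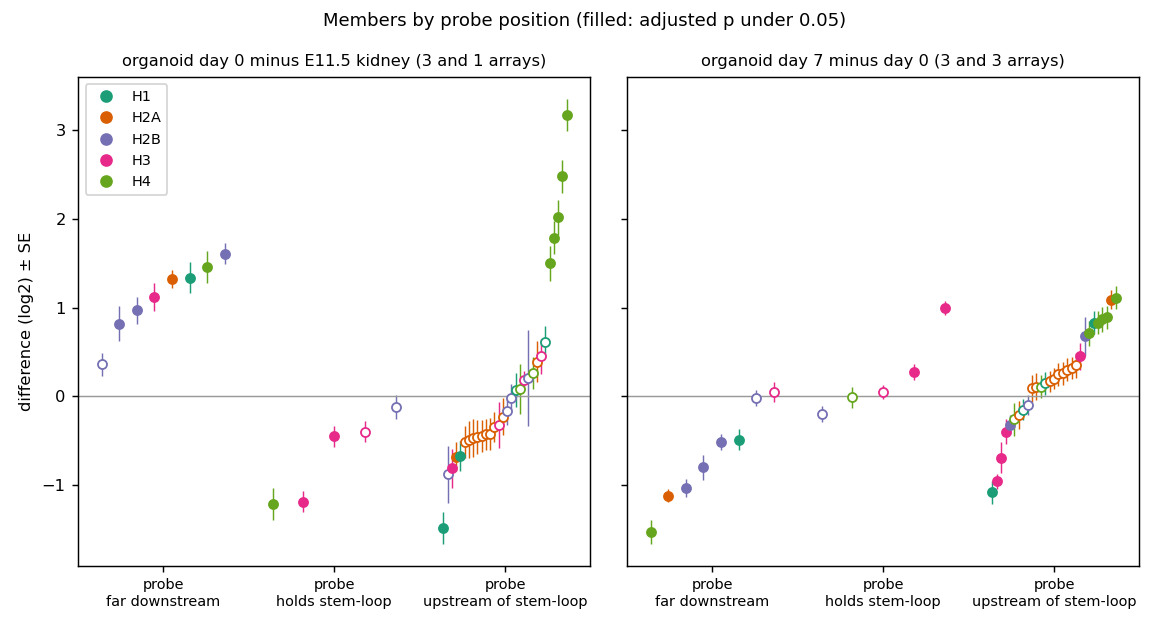
Difference in log2 level with its SE (y axis) for each tested member, grouped by probe position (x axis) and coloured by histone type, for day 0 organoids against E11.5 kidney (left) and day 7 against day 0 organoids (right); filled points have an adjusted p under 0.05. Both panels use the day 0 arrays, with opposite sign. On the left 7 of 8 downstream probes are called higher, and on the right 6 of 8 are called lower.

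Over 7 days of organoid culture the histone probes again divided. Of 42 tested members, 11 rose and 11 fell, in a comparison in which 66.6% of all genes were called, 24.6% higher and 42.0% lower. Without the 5 H4 genes, 6 of 37 rose and 11 fell. The values of 15 members at day 7 lay wholly above those at day 0 and those of 12 wholly below, so 27 of 42 did not overlap, and over all genes 73.2% did not, 26.8% above and 46.4% below. Of 15 proliferation genes 10 rose and none fell. This comparison shares the day 0 arrays with the one above, so opposite directions in the pair are no independent observation.

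By histone type, the median change of members above background on all arrays was −0.15 for H1, 0.23 for H2A, −0.32 for H2B, 0.05 for H3 and 0.71 for H4. The SD between replicates was 0.12, 0.15, 0.12, 0.07 and 0.14 in the same order, so the H3 median moved by less than the spread. H1 had 1 of 5 tested members higher and 2 lower, H2A 1 of 12 and 1, H2B 1 of 8 and 4, H3 3 of 8 and 3, and H4 5 of 9 and 1. Without the 5 H4 genes, H4 had 0 of 4 higher and 1 lower, with a median change of −0.13.

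Of the linker histones, Hist1h1b rose from 3.68 ± 0.20 to 4.50 ± 0.13 (mean ± SD, n = 3 each). All 3 day 7 values, 4.39, 4.49 and 4.64, were above the day 0 values of 3.85, 3.46 and 3.72 (difference 0.83, SE 0.13, limma adjusted p = 0.00143). Hist1h1t fell from −1.67 ± 0.12 to −2.75 ± 0.20 (difference −1.08, SE 0.13, limma adjusted p = 0.000466). Hist1h1c fell from 3.14 ± 0.14 to 2.65 ± 0.16 (difference −0.49, SE 0.12, limma adjusted p = 0.00972). Hist1h1a was at 1.34 ± 0.19 and 1.19 ± 0.06, and Hist1h1e at 5.31 ± 0.21 and 5.46 ± 0.13; neither passed the test.

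**Figure D4:**
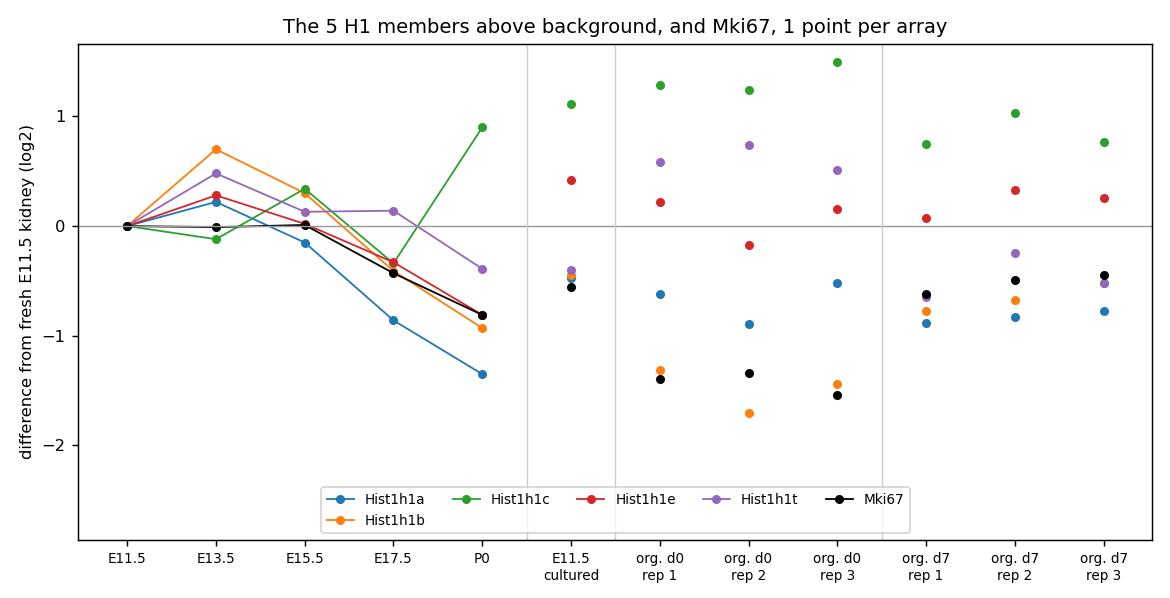
Difference in log2 level from fresh E11.5 kidney (y axis) for the 5 linker histone genes above background and for Mki67, 1 point per array (x axis), with fresh stages joined. Hist1h1b and Mki67 are both more than 1 below E11.5 at day 0, while Hist1h1c lies above E11.5 on all 6 organoid arrays.

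Of the H2A genes, Hist1h2ab rose from 6.06, 5.71 and 6.03 to 7.03, 6.99 and 7.04, a difference of 1.09 (SE 0.11, limma adjusted p = 0.000274). Hist3h2a fell from 4.52 ± 0.03 to 3.40 ± 0.03, a difference of −1.12 (SE 0.07, limma adjusted p = 4e-05). The 3 H2A members of highest signal, Hist1h2ah, Hist1h2af and Hist1h2ao, went from 8.78 ± 0.22 to 9.04 ± 0.08, from 8.55 ± 0.23 to 8.80 ± 0.07 and from 8.46 ± 0.21 to 8.77 ± 0.07, and none passed the test. The Hist1h2ah and Hist1h2af probes share 54 bases with 3 mismatches, and Hist1h2ao and Hist1h2af share 34 with 3 mismatches. These may therefore not be separate measurements.

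Of the H2B genes, Hist1h2be fell from −0.49, −0.56 and −0.58 to −1.75, −1.46 and −1.51, a difference of −1.03 (SE 0.10, limma adjusted p = 0.000225). Hist1h2bp fell by 0.80 (SE 0.14, limma adjusted p = 0.00239) and Hist2h2be by 0.51 (SE 0.09, limma adjusted p = 0.00282). All 3 are read by downstream probes. Hist1h2ba, the testis H2B, fell by 0.32 (limma adjusted p = 0.0421), a call lost in 10 of 16 alternative settings. Hist1h2bb rose by 0.68 (limma adjusted p = 0.0329), but was below background on 1 day 0 array, and its difference was −0.18 with normexp background correction. Hist1h2bm, the H2B member of highest signal, was at 3.55 ± 0.19 and 3.45 ± 0.05, and Hist1h2bc at 3.23 ± 0.10 and 3.22 ± 0.05; neither passed the test.

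Of the H3 genes, Hist1h3a rose from −2.55, −2.69 and −2.58 to −1.68, −1.60 and −1.55, with means of −2.61 and −1.61 (SE of the difference 0.08, limma adjusted p = 0.000111). Hist2h3b rose by 0.45 (limma adjusted p = 0.0366) and Hist1h3i by 0.27 (limma adjusted p = 0.0303). These 2 calls were lost in 7 and 10 of 16 alternative settings. Hist1h3c fell from 3.27, 3.22 and 3.26 to 2.21, 2.36 and 2.30, a difference of −0.96 (SE 0.08, limma adjusted p = 0.000108). Hist1h3f fell by 0.69 (limma adjusted p = 0.0138) and Hist1h3d by 0.40 (limma adjusted p = 0.0359). The Hist1h3d call was lost in 9 of 16 alternative settings.

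Of the H4 genes, Hist1h4i fell from 2.64 ± 0.19 to 1.11 ± 0.13, a difference of −1.53 (SE 0.13, limma adjusted p = 0.000103). At its probe at base 33 the difference was −0.61. Hist4h4 rose by 1.11 (SE 0.13, limma adjusted p = 0.000449), Hist1h4k by 0.89, Hist2h4 by 0.87, Hist1h4d by 0.83 and Hist1h4j by 0.71, from day 0 levels that were already high. Hist1h4m, read at its stem-loop, was at −1.37 ± 0.11 and −1.37 ± 0.19.

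By probe position, none of the 8 tested downstream members rose and 6 fell, with a median change of −0.65. Of the 5 stem-loop members 2 rose and none fell (median 0.05). Of the 29 upstream members 9 rose and 5 fell (median 0.20). Without the 5 H4 genes, 4 of 24 rose and 5 fell (median 0.13). The median over all genes was −0.20. All 22 called members kept their sign within slide 2, which held day 0 replicate 3 and the 3 day 7 arrays. With slide as a block 8 members rose and 10 fell, and Hist1h2bb, Hist1h3f, Hist1h3i and Hist2h3b no longer passed (limma adjusted p = 0.359, 0.113, 0.233 and 0.326). With quantile normalization 18 members were higher, and with normexp background correction 17.

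Day 7 organoids were compared with the E11.5 kidney cultured for the same time. Most histone probes did not differ by the test: 7 of 42 were higher and none lower, with 6.34% of all genes called, 3.25% higher and 3.09% lower. At an unadjusted p under 0.05 limma had 10 higher and 1 lower, and the share of all genes at that level was not counted. With a trended, robust variance 1 member was called lower. Without the 5 H4 genes, 2 of 37 were higher. Hist1h4d was at 4.10 in cultured kidney and at 8.18 ± 0.07 in day 7 organoids, a difference of 4.08 (SE 0.18, limma adjusted p = 0.000667), and Hist4h4 at 0.87 against 4.63 ± 0.08, a difference of 3.76 (SE 0.19, limma adjusted p = 0.000667). Hist2h4, Hist1h4k and Hist1h4j were 2.95, 2.75 and 2.42 higher. The 2 others were Hist1h2bc, at 2.40 against 3.22 ± 0.05 (difference 0.82, limma adjusted p = 0.0196), and Hist1h3a, at −2.35 against −1.61 ± 0.06 (difference 0.73, limma adjusted p = 0.0245). None of the 15 proliferation genes passed the test, and Mki67 differed by 0.04 (SE 0.13). The cultured kidney was on slide 1 and the day 7 arrays on slide 2. With slide as a block, which only day 0 replicates inform, 4 members were higher, and Hist1h2bc, Hist1h3a and Hist1h4j no longer passed (limma adjusted p = 0.166, 0.18 and 0.051).

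In the kidney itself, 7 days of culture moved few histone probes far. Against fresh E11.5 kidney, with 1 array each and no test, 1 of 43 members was past 1 on the log2 scale, upward and none downward, beside 19.7% of all genes, 11.3% upward and 8.41% downward. That member was Hist1h1c, at 1.80 fresh and 2.91 cultured. Hist1h1b went from 5.16 to 4.71, Hist1h4d from 4.18 to 4.10 and Hist3h2a from 3.20 to 3.51. The median difference was −0.23 over the members and −0.12 over all genes. The S-phase list moved further: 10 of 21 genes were past 1 downward, with a median of −0.97.

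The change over culture was then compared between organoid and kidney by an interaction term. Of 43 members 5 had a more positive change in the organoid and 5 a more negative one, with 12.3% of all genes called, 6.39% more positive and 5.92% more negative; without the 5 H4 genes the counts were 4 and 5 of 38. The more positive were Hist1h2ab (1.39, SE 0.23, limma adjusted p = 0.0197), Hist4h4 (1.29), Hist1h1b (1.27), Hist1h3a (1.14) and Hist1h3i (0.95). The more negative were Hist1h1c (−1.60, SE 0.24, limma adjusted p = 0.0153), Hist3h2a (−1.43), Hist1h4i (−1.28), Hist1h2be (−1.24) and Hist1h2bc (−0.79). All 5 of the latter are read by downstream probes. Mki67 had an interaction of 1.46 (SE 0.19, limma adjusted p = 0.0108), and 14 of 15 proliferation genes were more positive in the organoid. This term holds the same arrays as the comparisons above. It called 17 members higher with normexp background correction and 14 with quantile normalization. Leaving out a day 7 replicate reduced the higher calls to 1 or 2, leaving out day 0 replicate 2 raised them to 8, and leaving out day 7 replicate 1 or 3 or day 0 replicate 1 reduced the lower calls to 2 or 3.

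Likeness to Mki67 was described by Pearson's r over the 12 arrays, which fall into kidneys and organoids and include replicates, so no p is given. Of 40 members above background on every array, 5 had r over 0.7 and 4 had r under −0.7; over all 19014 genes 5.1% were over 0.7 and 8.28% under −0.7, beside 12.5% and 10% of the members. Hist1h1b was the closest, with r = 0.94 over the arrays and 0.94 over the 8 group means. It was followed by Hist1h3i and Hist2h3b (0.75 each), Hist1h4m (0.73) and Hist1h2ao (0.71). The most opposed were Hist3h2a (−0.87), Hist1h1c and Hist1h2be (−0.81 each) and Hist1h4i (−0.75). Over the 8 group means their r was −0.75, −0.76, −0.78 and −0.52 in the same order. Spearman's rank correlation over the 12 arrays was −0.65, −0.85, −0.47 and −0.27.

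The median r with Mki67 was −0.75 for the 7 downstream members, 0.61 for the 5 stem-loop members and 0.25 for the 28 upstream ones. By type it was 0.60 for H2A, 0.56 for H3, 0.09 for H1, −0.19 for H4 and −0.54 for H2B, and H2B has the most downstream probes, 5 of its 10 members. The 12 other proliferation genes measured this way all had r over 0.7.

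**Figure D5:**
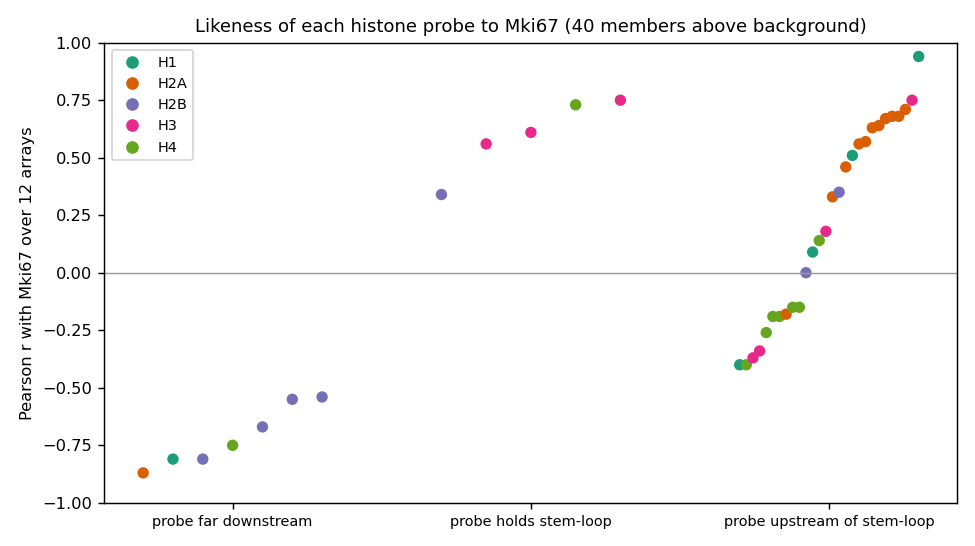
Pearson's r with Mki67 over 12 arrays (y axis) for the 40 members above background on every array, grouped by probe position (x axis) and coloured by histone type. All 7 downstream probes have a negative r and all 5 stem-loop probes a positive one.

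The genes that serve histone supply were read from lists of known function. From day 0 to day 7, 24.6% of all genes rose and 42.0% fell, with a median of −0.20, and the counts of these lists are to be read against that. Of 20 tested S-phase genes 3 rose and 6 fell, with a median of −0.20. Ccne1, the cyclin that starts S phase, fell by 1.05, Mcm4, of the replicative helicase, fell by 0.61, and Tk1, a thymidine kinase, rose by 0.81 (limma adjusted p = 0.000122, 0.00064 and 0.000823). Of 13 tested genes of histone mRNA processing 1 rose and 7 fell, with a median of −0.42. Zfp473, a zinc finger protein of the U7 complex, fell by 1.01 and Casp8ap2, a factor for histone gene transcription and processing, by 0.77 (limma adjusted p = 0.000157 and 0.000886). Slbp, the stem-loop binding protein, was at 1.33, 0.73 and 1.43 at day 0 and at 0.36, 0.50 and 0.91 at day 7. The ranges overlapped, and its difference of −0.57 had a limma adjusted p of 0.0615.

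Of 12 histone chaperone genes 1 rose and 5 fell, a share of falls close to that of all genes. Hjurp, which loads the centromeric H3 variant, rose by 1.18, and Nasp, a carrier of H3, H4 and H1, fell by 0.82 (limma adjusted p = 0.00103 and 0.000864). Of 11 replacement histone genes, which are made outside S phase as well and from polyadenylated mRNA, 2 rose and 7 fell. H3f3a and H3f3b, both encoding H3.3, fell by 1.01 and 0.68, and H2afv, a form of H2A.Z, by 0.80 (limma adjusted p = 9.29e-05, 0.00129 and 0.000541). In the kidney stages none of these 4 lists had a gene called higher, while 10 of 21 S-phase, 4 of 13 processing, 7 of 12 chaperone and 4 of 11 replacement genes were called lower, beside 9.57% of all genes.

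Promoters were read for the 39 members in the RefSeq promoter table (GRCm38.p6), over the 250 bases before each start. The TATA box letters TATAAA, searched on both strands, were in 46.2% of them against 13.0% of 27025 promoters, and the CAAT box letters CCAAT, likewise on both strands, in 82.1% against 34.5%. The CAAT box was in 2 of 8 H4 promoters and in all 12 of H2A and all 7 of H2B. The octamer ATTTGCAT, known from H2B promoters and searched on both strands, was in 4 of 7 H2B and 5 of 12 H2A promoters, in none of the H1, H3 or H4 promoters, and in 1.61% of all. H2A and H2B genes often stand head to head, and their windows can overlap. The 250 bases before the start are printed for Hist1h4d, of the H4 group that moved together, and for Hist1h2bm, which holds the octamer; the 3 motifs, on either strand, are in capitals.

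Hist1h4d, chr13:23581318-23581567 (GRCm38.p6), plus strand: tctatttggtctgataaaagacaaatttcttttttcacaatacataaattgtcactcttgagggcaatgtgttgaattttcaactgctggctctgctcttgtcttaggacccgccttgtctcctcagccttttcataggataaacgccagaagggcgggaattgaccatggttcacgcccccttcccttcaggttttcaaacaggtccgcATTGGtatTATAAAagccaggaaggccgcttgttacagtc
Hist1h2bm, chr13:21721794-21722043 (GRCm38.p6), plus strand: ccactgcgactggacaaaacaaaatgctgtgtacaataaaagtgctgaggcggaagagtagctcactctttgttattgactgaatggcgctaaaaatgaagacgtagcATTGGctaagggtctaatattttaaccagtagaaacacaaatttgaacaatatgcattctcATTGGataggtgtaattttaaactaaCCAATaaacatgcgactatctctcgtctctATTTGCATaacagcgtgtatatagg

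Of the other H4 genes that moved with Hist1h4d, the windows of Hist1h4j, Hist1h4k and Hist4h4 hold no CAAT box, and Hist2h4 had no entry.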

How the data were processed

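RNA of 12 samples was labelled with Cy3 and hybridised to one-colour Agilent arrays, 1 array each; the kit, per the labels' protocols, was Agilent's Low RNA Input Linear Amplification Kit. Such kits prime from poly(A) tails, and which transcripts gave the signal was not tested. Processed signal intensity, local background and the flags for spots well above background come from Feature Extraction 11.5.1.1 with mm9 annotation, per the file headers; the submitters' processing notes name version 10.7.3.1. The authors' deposited log2 table equals the values used here to a constant per array (SD of the difference 2.42e-07 to 2.69e-07), so its scale is log2 and its direction that of the signal; its column medians run from −4.03 to −3.66.

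Control spots and outlier spots (108 to 206 per array) were left out, spots of a probe were averaged, and log2 signal minus the array's 75th percentile was taken with no pseudocount. A gene was tested where some compared group had it well above background on all its arrays. The test was limma's moderated test, with limma 3.58.1 in R 4.3.3, with Benjamini-Hochberg adjustment over all of them. The organoid groups were fitted alone for day 7 against day 0, the 5 fresh kidneys for the stage trend, and 4 groups (8 arrays) for the other tests. Each fit was tested on simulated data: of 100 genes changed 2-fold, 88% were recovered for day 7 against day 0, 44% for day 0 against E11.5 kidney, 47% for day 7 against cultured kidney, 2% for the interaction and none for the stage trend. Few genes were changed there, and the spread was that of the organoid replicates in every fit. These rates hold for that setting and not for data in which many genes differ.

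The members and lists were chosen with earlier results of these data known. Members named are every H1, Hist3 and Hist4 gene, the 3 of highest mean in each other type, and up to 2 rises and 2 falls per comparison and type; from each list, Mki67 and up to 3 genes with the largest day 7 change. Other members named, such as Hist1h4j, Hist1h4c and Hist1h4h, and Slbp and marker genes outside that rule, were chosen after their values were seen. Alternatives were normexp background correction, quantile normalization, median scaling, other background filters, trended robust moderation, slide and replicate blocks, and leaving out each array.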

Additional observations from a re-analysis of the deposited data

Results flagged for a closer look

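The change over 7 days of culture differed between organoid and E11.5 kidney for 10 members by the interaction term of limma, given as the organoid change minus the kidney change on the log2 scale, with Benjamini-Hochberg adjustment over all genes tested. It was more positive in the organoid for Hist1h2ab (1.39, SE 0.23, adjusted p = 0.0197), Hist4h4 (1.29, SE 0.27, adjusted p = 0.0336) and Hist1h1b (1.27, SE 0.26, adjusted p = 0.0327). The same held for Hist1h3a (1.14, SE 0.17, adjusted p = 0.0148) and Hist1h3i (0.95, SE 0.17, adjusted p = 0.0241). It was more negative for Hist1h1c (−1.60, SE 0.24, adjusted p = 0.0153), Hist3h2a (−1.43, SE 0.14, adjusted p = 0.00595) and Hist1h4i (−1.28, SE 0.26, adjusted p = 0.0312). Hist1h2be (−1.24, SE 0.21, adjusted p = 0.0200) and Hist1h2bc (−0.79, SE 0.17, adjusted p = 0.0396) were also more negative. Each kidney value rests on 1 array. With slide as a block, Hist1h1b, Hist1h2ab, Hist1h2bc and Hist1h2be no longer passed.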

How the results depend on the processing

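Counts below are of members called, first as reported and then under each alternative. The shares of all genes called under the alternatives are not given, here or above. A shift in these member counts can therefore not be told from a shift of all genes. For day 7 against day 0, 11 higher became 17 with normexp background correction, 18 with quantile normalization and 6 without the 5 H4 genes, an alternative added after seeing the data. For the stage trend, 1 higher became 2 with normexp, and 5 lower became 11 with normexp, 0 with median scaling, 1 with no background filter, 12 with the filter on every array and 12 with trended robust moderation. For day 0 against E11.5 kidney, 7 lower became 15 with normexp, 15 with quantile normalization and 3 with median scaling, and 12 higher became 7 without the 5 H4 genes. For day 7 against cultured kidney, 0 lower became 1 with normexp, with the filter on every array and with trended moderation, and 7 higher became 4 with the slide block and 2 without the 5 H4 genes. For the interaction, 5 higher became 17 with normexp, 14 with quantile normalization, 3 with no filter, 8 with the filter on every array, 9 with trended moderation and 3 with the slide block. Its 5 lower became 9 with normexp and 3 with median scaling, with no filter and with the slide block. The day 7 change of Hist1h2bb reversed from 0.68 to −0.18 with normexp. The H2B median moved from −0.32 to −0.17 and the H3 median from 0.05 to −0.07 with normexp. The cause was not tested. Leaving out 1 array gave 8 to 15 higher and 9 to 14 lower for day 7 against day 0, 0 to 2 and 0 to 20 for the stage trend, 11 to 13 and 3 to 7 for day 0 against E11.5 kidney, 5 to 8 and 0 for day 7 against cultured kidney, and 1 to 8 and 2 to 5 for the interaction. The type medians then ran from −0.26 to −0.07 (H1), 0.10 to 0.31 (H2A), −0.40 to −0.24 (H2B), 0.02 to 0.09 (H3) and 0.58 to 0.83 (H4). Same-numbered organoid samples did not deviate together (r = −0.03, −0.16 and −0.03), so the numbers were not taken as pairs; with the replicate block 8 members were higher and 9 lower. Among single called members, values that kept their direction and call and those that lost the call numbered 307 and 43 for day 7 against day 0, 43 and 35 for the stage trend, 255 and 30 for day 0 against E11.5 kidney, 95 and 10 for day 7 against cultured kidney, and 116 and 34 for the interaction. Losses fell unevenly on the members. The Hist1h3g call for day 0 against E11.5 kidney was lost in 11 of 15 settings, and the Hist1h2bp stage slope in 10 of 13. The signal over background limits Hist1h1d, Hist1h2bq and Hist3h2bb-ps, which were not above it on most or several arrays.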
